A study of Mus musculus with 12 samples.

Results

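The TALE homeobox cofactors described here are 7 genes: Meis1, Meis2, Meis3, Pbx2, Pbx3, Pknox1 and Pknox2. They were chosen by name from the MEIS, PBX and PKNOX (PREP) families, each with a probe set of a single gene symbol, and they are 7 of the 19938 genes with such a probe set. Each had 1 probe set, and all 7 passed the filter on dim genes that left 12988 genes tested. Pbx4, a further PBX gene that was tested, is not among the 7 and is given with the other TALE genes. Meis1 lies on mouse chromosome 11, Meis2 and Pbx3 on 2, Meis3 on 7, Pbx2 and Pknox1 on 17, and Pknox2 on 9.

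Expression was measured as log2 probe set values on 12 Affymetrix arrays of R1 cells, a mouse embryonic stem cell (ESC) line grown here on mitomycin-treated embryonic fibroblasts. The cells were infected with a scrambled control or carried a knockdown of Smarcd1, which encodes the BAF60a subunit of SWI/SNF chromatin remodelling complexes. Undifferentiated cells, kept with leukemia inhibitory factor (LIF), gave 2 scrambled arrays, 2 arrays of the knockdown labelled KD1 and 2 of that labelled KD2. Cells differentiated for 4 days with 1 µM retinoic acid and without LIF gave 2 scrambled and 4 KD1 arrays. The labels speak of clones, so each knockdown label may stand for 1 clone, and they call the replicates biological without saying whether these were separate cultures. The p-values therefore measure only the spread between these arrays.

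TALE proteins are homeodomain transcription factors with a short insertion of residues in a loop of the homeodomain. PBX proteins bind DNA together with HOX proteins and sharpen their choice of site. MEIS and PKNOX proteins pair with PBX, keep it in the nucleus and bind beside it. In the embryo retinoic acid switches on Hox genes and several TALE genes in order along the body axis, above all in hindbrain and limb, and it does so in cultured stem cells too.

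The knockdown was checked first. Smarcd1 was 8.67 and 8.68 on the scrambled ESC arrays, 7.75 and 7.78 on the KD1 ESC arrays, 8.84 and 8.64 on the scrambled retinoic acid arrays, and 6.36, 6.61, 6.50 and 6.44 on the KD1 retinoic acid arrays. All KD1 arrays were below all scrambled arrays. The KD2 arrays were 8.56 and 7.16, so the array labelled KD2 replicate 1 was close to the scrambled level and went against its label. The KD2 results of the 7 genes are given below with and without it. The KD1 difference after retinoic acid was -2.26 ± 0.28 (SE, adjusted p = 0.000152), and that in ESCs was -0.91 ± 0.33 (adjusted p = 0.23). The pooled spread of the limma fit includes the 2 KD2 arrays, which lay far apart for Smarcd1. Without either KD2 array the ESC difference was -0.91 with an adjusted p of 0.00199, where 8.2% of all genes were called. With replicates 1 and 2 alone and a term for replicate number, the adjusted p was 0.41.

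The ESC label was checked against 8 genes of undifferentiated cells, among them Pou5f1, Nanog and Sox2. Their mean per array was 10.5 to 11.29 in the ESC groups, 6.66 to 6.79 in scrambled cells after retinoic acid and 5.88 to 7.05 in KD1 cells after retinoic acid. Within the KD1 retinoic acid group, Nanog was 4.14 and 4.71 on replicates 1 and 2 but 7.14 and 6.94 on replicates 3 and 4, so calls of the 7 genes and the main counts of the gene lists are also given with each pair alone where they differ. Among the ESC arrays, scrambled replicate 1 stood apart in Cyp26a1, an early retinoic acid target, at 8.9 against 3.77 to 4.57 on the other 5. It was also the highest in the mesoderm markers Eomes, at 5.96 against 4.22 to 4.65, and Mixl1, at 5.12 against 4.03 to 4.51. On that array Meis1 was 4.58 and Meis2 4.15, each below scrambled replicate 2. Pbx3 at 5.71, Pknox1 at 5.95 and Pknox2 at 3.75 were also below replicate 2, which read 6.19, 5.98 and 3.80. Pbx2 at 6.28 and Meis3 at 4.91 were above replicate 2 by less than 0.2 log2 units.

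Meis1 and Meis2 had the 2 largest changes of the 7 genes, and the 250 bases before 1 RefSeq start of each (GRCm38.p6) are shown because both genes moved together with retinoic acid. Capitals mark CpG dinucleotides, and both runs read 5′ to 3′ on the gene's own strand, which is the minus strand, from chr11:19018970-19019219 for Meis1 and from chr2:116064620-116064869 for Meis2.
Meis1: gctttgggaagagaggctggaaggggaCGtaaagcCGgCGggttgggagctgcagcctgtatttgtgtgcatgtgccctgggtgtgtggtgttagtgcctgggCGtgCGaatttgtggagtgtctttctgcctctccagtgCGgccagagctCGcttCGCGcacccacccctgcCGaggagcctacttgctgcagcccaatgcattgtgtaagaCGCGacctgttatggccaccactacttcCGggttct
Meis2: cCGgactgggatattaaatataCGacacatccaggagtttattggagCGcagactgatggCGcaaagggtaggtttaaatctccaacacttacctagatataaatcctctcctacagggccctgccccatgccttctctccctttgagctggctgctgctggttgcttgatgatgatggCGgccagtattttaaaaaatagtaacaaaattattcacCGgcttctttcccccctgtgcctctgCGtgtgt
The RefSeq models of both genes reach further upstream than these windows, so each gene also has an annotated start that is not shown. The Meis1 window held 13 CpGs at 59.6% G and C, and the Meis2 window held 7 CpGs at 47.6%. The median over 32841 RefSeq windows of this length was 6 CpGs at 52.4%. Windows were at hand for 4 of the 7 genes, the others being Meis3 (12 CpGs, 63.6%) and Pbx2 (27 CpGs, 77.6%). Both strands of the 4 windows were searched for the MEIS and PKNOX core TGACAG, found in 15.9% of all windows, the PBX with HOX site TGATNNAT, found in 7.69%, and the retinoic acid receptor half-sites AGGTCA (14.0%) and AGTTCA (11.8%). The only match was AGTTCA in the Meis3 window, on the strand opposite to the gene. A pair of half-sites repeated in one direction 5 bases apart was in 0.0335% of all windows and in none of the 4.

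The MEIS family held the largest differences. Meis1 was 4.58 and 4.88 on the scrambled ESC arrays, 5.18 and 4.97 on KD1, 4.82 and 4.84 on KD2, 10.24 and 10.07 on the scrambled retinoic acid arrays, and 9.52, 9.12, 9.30 and 9.46 on the KD1 retinoic acid arrays. The retinoic acid arrays were all far above the ESC arrays, and the 2 retinoic acid groups did not overlap. Meis2 was 4.15 and 4.45 on the scrambled ESC arrays, 4.52 and 4.36 on KD1, 3.95 and 4.05 on KD2, 9.60 and 9.84 on the scrambled retinoic acid arrays, and 7.80, 7.45, 7.70 and 8.11 on the KD1 retinoic acid arrays. The order of the groups was the same at the top, with a wider gap between scrambled and KD1 cells after retinoic acid. Meis3 was 4.91 and 4.84 on the scrambled ESC arrays, 5.10 and 4.99 on KD1, 5.23 and 5.11 on KD2, 6.18 and 6.28 on the scrambled retinoic acid arrays, and 6.47, 6.77, 6.54 and 6.55 on the KD1 retinoic acid arrays. Meis3 was the one gene of the 7 whose highest group was KD1 after retinoic acid.

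The PBX genes encode the partners that contact both HOX and MEIS proteins. Pbx2 was 6.28 and 6.10 on the scrambled ESC arrays, 6.19 and 5.71 on KD1, 5.81 and 6.94 on KD2, 8.54 and 8.26 on the scrambled retinoic acid arrays, and 7.79, 7.73, 7.54 and 7.56 on the KD1 retinoic acid arrays. The ESC groups overlapped one another, and the KD2 arrays were further apart than those of any other group. Pbx3 was 5.71 and 6.19 on the scrambled ESC arrays, 5.27 and 5.94 on KD1, 5.58 and 5.89 on KD2, 7.29 and 7.40 on the scrambled retinoic acid arrays, and 5.99, 5.94, 6.17 and 6.08 on the KD1 retinoic acid arrays. Only the scrambled retinoic acid arrays stood clear of the rest for Pbx3, and the KD1 retinoic acid arrays overlapped the scrambled ESC arrays.

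The PKNOX genes encode PREP proteins, which compete with MEIS for PBX. Pknox1 was 5.95 and 5.98 on the scrambled ESC arrays, 5.62 and 5.86 on KD1, 5.51 and 6.70 on KD2, 6.78 and 7.02 on the scrambled retinoic acid arrays, and 6.45, 6.83, 6.67 and 6.73 on the KD1 retinoic acid arrays. The 2 retinoic acid groups overlapped. Pknox2 was 3.75 and 3.80 on the scrambled ESC arrays, 3.71 and 3.60 on KD1, 3.87 and 3.99 on KD2, 5.91 and 5.67 on the scrambled retinoic acid arrays, and 4.59, 4.21, 4.56 and 4.85 on the KD1 retinoic acid arrays. The KD1 retinoic acid arrays lay between the ESC arrays and the scrambled retinoic acid arrays with no overlap. Meis2 and Pknox2 were below the dim-gene filter on all 6 ESC arrays, so their ESC values are close to background and their folds with retinoic acid may be understated. Pknox2 was above the filter on only 3 of the 4 KD1 retinoic acid arrays, with replicate 2 at 4.21. Its comparisons that use KD1 arrays therefore rest on values near the floor. Meis1 at 4.58 on scrambled ESC replicate 1 was just above the filter value of 4.56.

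**Figure D1:**
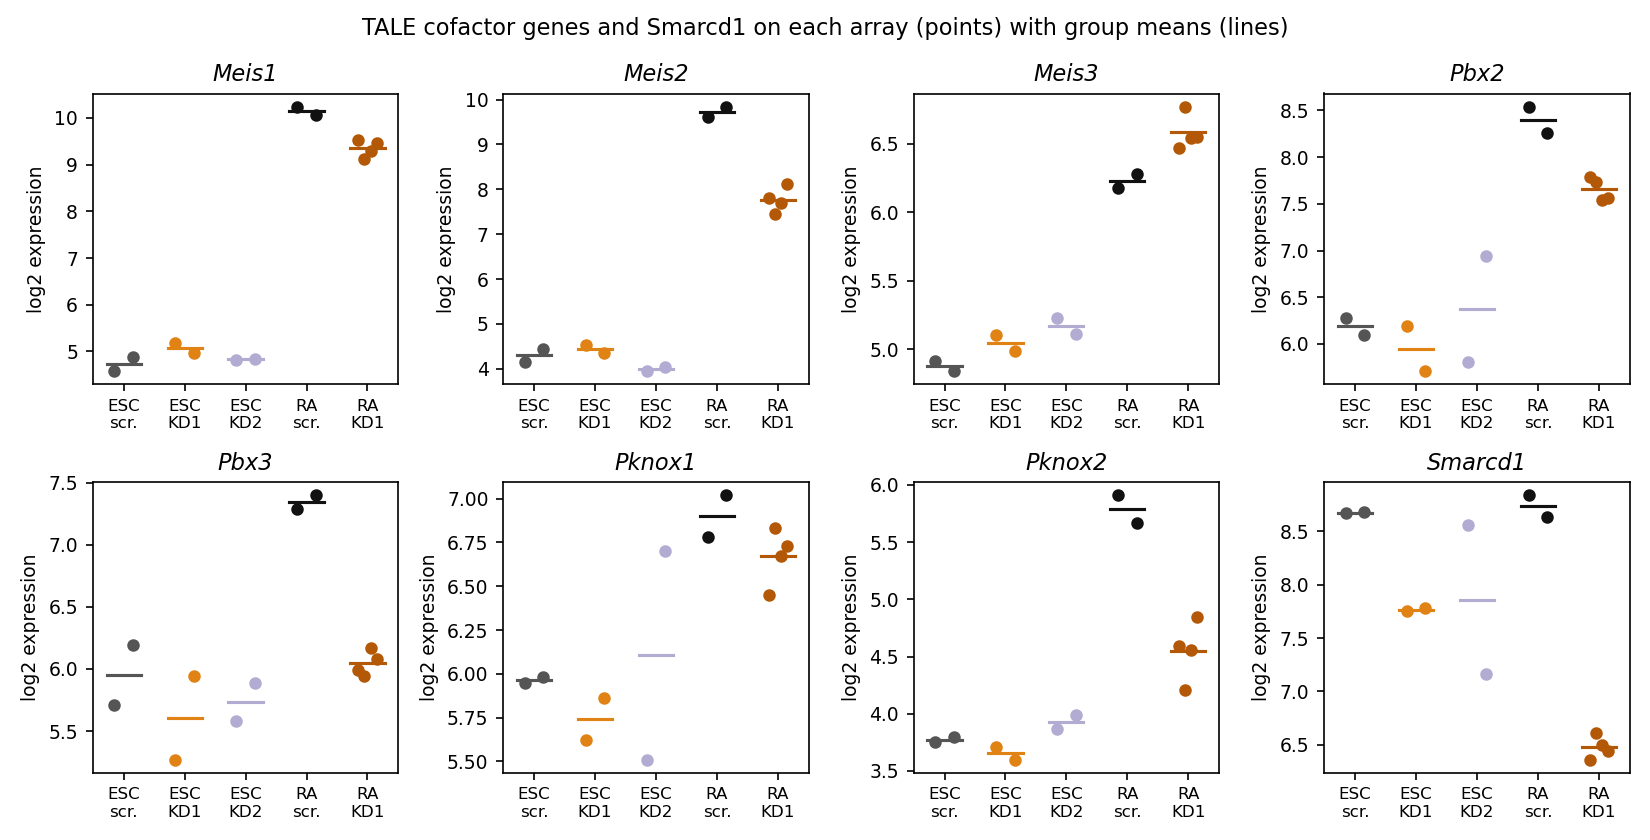
Log2 expression (vertical axes, a different range in each panel) of the 7 cofactor genes and Smarcd1 in the 5 groups: scrambled (scr.), KD1 and KD2 ESCs, and scrambled and KD1 cells after retinoic acid (RA). Points are arrays and lines are group means; Meis1 and Meis2 sit above 7 on every retinoic acid array and at or below 5.18 on every ESC array.

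The first comparison asked which of these genes responded to retinoic acid in control cells, as scrambled cells after retinoic acid against scrambled ESCs. All 7 rose, and in each of them both retinoic acid arrays were above both ESC arrays. Meis1 rose by 5.42 ± 0.18 on the log2 scale (SE, 42.9-fold, adjusted p = 3.13e-08) and Meis2 by 5.41 ± 0.21 (42.6-fold, adjusted p = 4.42e-08). Pbx2 rose by 2.22 ± 0.30 and Pknox2 by 2.02 ± 0.20 (4.65-fold and 4.04-fold). Pbx3 rose by 1.40 ± 0.23, Meis3 by 1.35 ± 0.15 and Pknox1 by 0.93 ± 0.30. Over all tested genes 22.4% were called higher and 16.7% lower, and 43.5% had arrays that did not overlap and were higher. The median change of the 7 genes was 2.02, beside 0.06 over all genes tested. Meis2 and Pknox2 were above the dim-gene filter only on retinoic acid arrays, so they were tested only because they were high there. Counts, array overlaps and medians of the 7 genes are therefore partly set by the filter. The same holds for the later comparisons that use retinoic acid arrays. Pknox1 had the weakest call (adjusted p = 0.0279), and leaving out any of the 4 arrays compared ended it (adjusted p = 0.0677 to 0.152). The values come from bulk cultures, in which more cells that express a gene and more RNA per cell cannot be told apart.

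In KD1 cells the same comparison called 6 of the 7 genes higher, where 29.4% of all tested genes were called higher and 21.4% lower. Meis1 rose by 4.27 ± 0.16 (SE, 19.3-fold, adjusted p = 1.32e-08) and Meis2 by 3.33 ± 0.18 (10.0-fold, adjusted p = 1.22e-07). Pbx2 rose by 1.70 ± 0.26, Meis3 by 1.54 ± 0.13, Pknox1 by 0.93 ± 0.26 and Pknox2 by 0.90 ± 0.17. Pbx3 was 0.44 ± 0.20 higher with an adjusted p of 0.0842 (95% interval 0.01 to 0.88), and its lowest retinoic acid array and highest ESC array both read 5.94. The arrays of all 7 genes did not overlap and were higher, beside 40.9% of all tested genes. The Pbx3 value turned on the KD1 ESC arrays: it was 0.11 (adjusted p = 0.726) without replicate 1 and 0.78 (adjusted p = 0.0199) without replicate 2. Pbx3 was also called with estimated array weights (0.46, adjusted p = 0.0253). Pknox1 lost its call without KD1 ESC replicate 1 (0.81, adjusted p = 0.0948) and with the KD1 retinoic acid arrays 1 and 2 alone (0.90, adjusted p = 0.0578).

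After retinoic acid, KD1 was then set against scrambled cells, which asks whether the differentiated cells differ when Smarcd1 is low. This comparison shares its scrambled retinoic acid arrays with the first one. Of the 7 genes 4 fell and 0 rose; over all tested genes 11.5% were called lower and 11.2% higher. Meis2 fell most, by 1.95 ± 0.18 on the log2 scale (SE, 3.87-fold, adjusted p = 1.77e-05). Pbx3 fell by 1.30 ± 0.20 (2.46-fold, adjusted p = 0.000659), Pknox2 by 1.24 ± 0.17 (2.36-fold, adjusted p = 0.000309) and Meis1 by 0.81 ± 0.16 (1.75-fold, adjusted p = 0.00294). The same 4 genes were called with the KD1 retinoic acid arrays 1 and 2 alone and with arrays 3 and 4 alone. Over all tested genes those fits called 6.78% and 8.28% lower, and 6.95% and 7.98% higher. Meis1 was not called without scrambled retinoic acid replicate 1 (-0.72, adjusted p = 0.0523).

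The other 3 genes did not pass in this comparison. Pbx2 was -0.75 ± 0.26 (adjusted p = 0.0592, 95% interval -1.32 to -0.18) and Meis3 was 0.36 ± 0.13 (adjusted p = 0.0752, interval 0.07 to 0.64). Their arrays did not overlap, lower in KD1 for Pbx2 and higher for Meis3. Pknox1 was -0.23 ± 0.26 (adjusted p = 0.611, interval -0.79 to 0.34), and its arrays overlapped. In all, 5 of the 7 genes had KD1 arrays wholly below the scrambled ones, beside 27.5% of all tested genes. The pooled spread of the fit includes the KD2 arrays, which lay far apart for Pbx2 and Pknox1. Without either KD2 array Pbx2 was called lower (-0.75, adjusted p = 0.00251) and Meis3 higher (0.36, adjusted p = 0.0232), in a fit that called 18.8% of all genes lower and 18.6% higher.

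**Figure D2:**
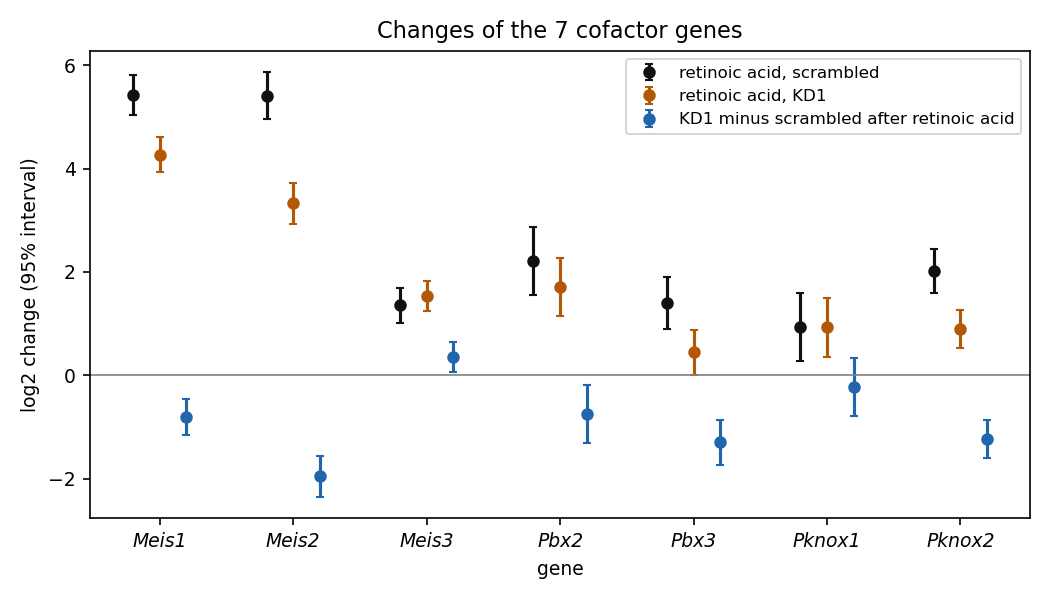
Log2 change (vertical axis) of each of the 7 genes with retinoic acid in scrambled cells, with retinoic acid in KD1 cells, and of KD1 minus scrambled cells after retinoic acid; bars are 95% intervals of the fit to 12 arrays. Meis1 and Meis2 have the largest responses in both lines, and Meis2 the largest KD1 difference, at -1.95.

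The difference between the retinoic acid responses of KD1 and scrambled cells was tested as an interaction, and 3 of the 7 genes had a smaller response in KD1 cells, with 0 larger. Over all tested genes 3.61% were called lower and 4.27% higher. The Meis2 response was smaller by 2.09 log2 units in KD1 cells (-2.09 ± 0.28 SE, adjusted p = 0.000905). That of Meis1 differed by -1.15 ± 0.24 (adjusted p = 0.0127) and that of Pknox2 by -1.12 ± 0.26 (adjusted p = 0.0226). Pbx3 differed by -0.96 ± 0.31 (adjusted p = 0.085). It passed without either KD2 array (adjusted p = 0.0368), where 8.34% of all genes were called lower, and ran from -0.62 without KD1 ESC replicate 2 (adjusted p = 0.35) to -1.29 without KD1 ESC replicate 1 (adjusted p = 0.0398). Pbx2 differed by -0.51 ± 0.40 (95% interval -1.38 to 0.35), Meis3 by 0.18 ± 0.20 (-0.25 to 0.62) and Pknox1 by 0.00 ± 0.40 (-0.87 to 0.87). The call for Meis2 held without any 1 array. Meis1 lost its call without scrambled ESC replicate 1, KD1 ESC replicate 1 or scrambled retinoic acid replicate 1 (adjusted p = 0.0619, 0.0726 and 0.0718), and with the KD1 retinoic acid arrays 1 and 2 alone (0.0502). Pknox2 lost its call without any of the 6 arrays of the scrambled ESC, KD1 ESC and scrambled retinoic acid groups (adjusted p = 0.0595 to 0.111), and with the KD1 retinoic acid arrays 3 and 4 alone (0.0513).

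In undifferentiated cells 0 of the 7 genes were called for KD1 against scrambled, and 0 had an unadjusted p under 0.05 in limma. Over all tested genes 2.32% were called, and 1666 of 12988 had an unadjusted p under 0.05. Meis1 was 0.34 ± 0.18 higher (SE, adjusted p = 0.492, 95% interval -0.05 to 0.74) and Pbx3 -0.34 ± 0.23 (adjusted p = 0.633, -0.85 to 0.16). Meis2 differed by 0.14 ± 0.21 (-0.32 to 0.59), Meis3 by 0.17 ± 0.15 (-0.16 to 0.50), Pbx2 by -0.24 ± 0.30 (-0.89 to 0.42), Pknox1 by -0.23 ± 0.30 (-0.88 to 0.43) and Pknox2 by -0.12 ± 0.20 (-0.55 to 0.31). All intervals include 0, and a change as large as 0.5 log2 units is inside most of them.

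For KD2 against scrambled ESCs, 0 of the 7 genes were called and 0 had an unadjusted p under 0.05 in limma. Over all tested genes 10.0% were called, and 3131 of 12988 had an unadjusted p under 0.05. For KD2 against KD1, which share the KD2 arrays with that comparison, the counts were 0 and 0. Over all tested genes 2.7% were called there, and 2125 had an unadjusted p under 0.05. Pbx2 and Pknox1 differed most between the 2 KD2 arrays, and the array with low Smarcd1 was the higher for both. Without the array labelled KD2 replicate 1, both genes were called higher against scrambled ESCs, Pbx2 by 0.75 (adjusted p = 0.0187) and Pknox1 by 0.73 (adjusted p = 0.011). Against KD1 they were then higher by 0.99 (adjusted p = 0.00534) and 0.96 (adjusted p = 0.00315). That fit called 19.4% of all genes higher and 15.1% lower against scrambled, and 20.9% higher and 14.3% lower against KD1. The other 5 genes were not called in it: against scrambled ESCs Meis1 was 0.11, Meis2 -0.25, Meis3 0.23, Pbx3 -0.06 and Pknox2 0.21, and against KD1 they were -0.23, -0.39, 0.06, 0.29 and 0.33. Without KD2 replicate 2 the same differences were -0.38 and -0.46 against scrambled and -0.14 and -0.23 against KD1, with no gene called. Each of these rests on 1 KD2 array, assumed to vary like the other groups.

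Of the other TALE genes, 8 of the TGIF, IRX and MKX families, which are repressors and patterning factors, and Pbx4 were tested, 9 in all. Pbx4 was 5.79 and 6.09 on the scrambled ESC arrays and 6.09 and 6.34 on the scrambled retinoic acid arrays, a change of 0.27 ± 0.16 (adjusted p = 0.208), and it was called in no comparison. In scrambled cells 2 of the 9 rose with retinoic acid, Irx3 by 1.16 ± 0.17 and Irx5 by 0.91 ± 0.18. In KD1 cells 3 of the 9 rose, led by Mkx, a regulator of tendon, by 2.28 ± 0.27. These shares are near the 22.4% and 29.4% called higher over all tested genes. After retinoic acid Mkx was higher in KD1 than in scrambled cells by 1.58 ± 0.27 (adjusted p = 0.00131), and Irx3 was lower by a log2 difference of -0.49 (adjusted p = 0.03). The Irx3 call was lost without scrambled retinoic acid replicate 1 (-0.31, adjusted p = 0.345), without KD1 retinoic acid replicate 1, 3 or 4 (adjusted p = 0.0519, 0.0682 and 0.0754) and with either pair of those arrays alone. The interaction called Mkx alone of the 9, at 2.40 ± 0.41 (adjusted p = 0.00466). The median change of the 9 with retinoic acid in scrambled cells was 0.15, beside 2.02 for the 7 cofactor genes.

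Hox genes encode the DNA-binding partners of PBX and MEIS, and 27 of 37 listed were tested. In scrambled cells 23 of the 27 rose with retinoic acid and 0 fell, with a median of 1.64. In KD1 cells 16 rose and 0 fell, with a median of 0.60. Over all tested genes 22.4% were called higher in scrambled cells and 29.4% in KD1 cells. After retinoic acid 20 of the 27 were lower in KD1 than in scrambled cells and 2 higher, with a median of -1.04. Over all tested genes 11.5% were lower and 11.2% higher there. A gene needed only 2 arrays above the dim-gene filter. Hoxa2, Hoxa6, Hoxd1 and Hoxd4 were above it on the scrambled retinoic acid arrays alone, and Hoxc13 on the KD1 retinoic acid arrays alone. These counts and medians are therefore partly set by the filter. The lists below were filtered in the same way. Hoxc5 was lower by 2.98 (log2 difference -2.98 ± 0.25), and Hoxb5 and Hoxc8 differed by -1.97 and -1.94. Hoxc4 differed by -2.11, but its scrambled retinoic acid arrays read 8.59 and 6.39, and the value was -1.01 without the first and -3.21 without the second. With a replicate block Hoxc4 was not called (adjusted p = 0.0529). The 2 higher were Hoxc13 at 0.84 and Hoxd13 at 0.53, both of the posterior end of their clusters. The interaction was lower for 12 and higher for 1 of the 27. With the KD1 retinoic acid arrays 1 and 2 alone 18 were lower after retinoic acid and 10 rose with it, and with arrays 3 and 4 alone 16 and 14. The interaction was then lower for 11 and 10, where 1.8% and 2.57% of all tested genes were called lower.

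**Figure D3:**
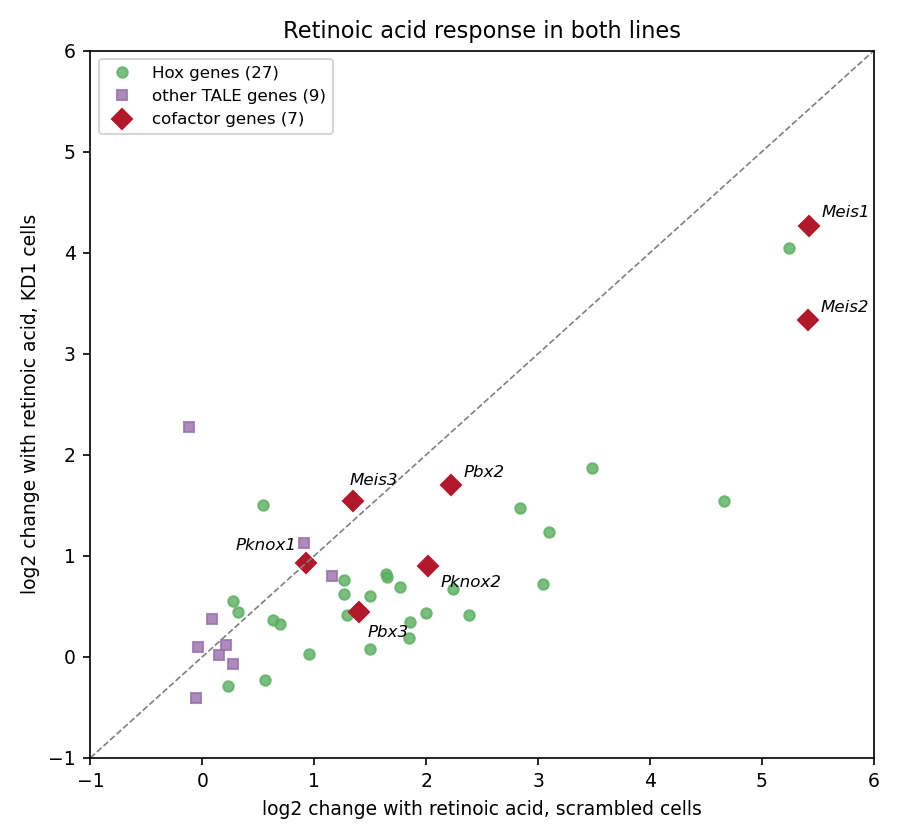
Log2 change with retinoic acid in scrambled cells (horizontal axis) and in KD1 cells (vertical axis) for the 7 cofactor genes (diamonds), 9 other TALE genes (squares) and 27 Hox genes (circles); each point is 1 gene and the dashed line marks equal change. The 2 axes share no arrays; Meis1, Meis2 and most Hox genes lie below the line, and Mkx is the square at 2.28 on the vertical axis.

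Of 6 tested partners of TALE proteins outside the Hox family, 2 rose with retinoic acid in scrambled cells, Pax6, an eye and forebrain factor, by 2.11 and Hand2, a heart and limb factor, by 1.26. After retinoic acid 2 were lower in KD1 than in scrambled cells, Pax6 at -2.43 ± 0.28 and Hand2 at -1.06, and Pbxip1, which binds and holds back PBX, was higher at 0.61. The Pbxip1 call was lost without scrambled retinoic acid replicate 1 (0.54, adjusted p = 0.118) and with the KD1 retinoic acid arrays 1 and 2 alone or 3 and 4 alone (adjusted p = 0.0657 and 0.0552). Of 10 tested genes that MEIS, PBX or PREP proteins are known to regulate, 8 rose with retinoic acid in scrambled cells and 0 fell. After retinoic acid 8 of the 10 were lower in KD1 and 0 higher, among them Hoxb2 at -1.93, the cell cycle gene Ccnd1 at -1.82 and Trib2 at -1.53. With the KD1 retinoic acid arrays 1 and 2 alone 6 were lower, and with arrays 3 and 4 alone 7. Pax6 and the Hox genes of this list are also in the lists above. Over all tested genes 22.4% were called higher with retinoic acid in scrambled cells, and the 2 of 6 partners that rose are near that share. After retinoic acid 11.5% of all tested genes were lower in KD1 and 11.2% higher. With arrays 1 and 2 alone or 3 and 4 alone 6.78% and 8.28% were lower.

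Of 12 tested genes that retinoic acid is known to switch on, 10 rose with retinoic acid in scrambled cells (median 3.75) and 9 in KD1 cells (median 2.69), where 1 fell, Crabp1 by 1.99. After retinoic acid 7 of the 12 were called lower in KD1 and 0 were called higher. Among the lower were Nr2f1 at -3.14, Crabp1 at -2.90 and Nr2f2 at -2.11. With each pair of KD1 arrays alone 5 and 6 were called lower. Over all tested genes 22.4% rose with retinoic acid in scrambled cells and 29.4% in KD1 cells. After it 11.5% were lower in KD1, and 6.78% and 8.28% with each pair alone. Cyp26a1 was not called, although its KD1 retinoic acid arrays were all higher, at 12 to 12.27 against 10.32 and 10.54 in scrambled cells. The pooled spread of its fit includes scrambled ESC replicate 1 at 8.9, beside 4.39 on replicate 2. Rarb, a direct target, rose by 4.57 in scrambled cells and by 4.95 in KD1 cells (interaction 0.38 ± 0.37, adjusted p = 0.652). None of these lists had a gene called in limma for the ESC comparisons, with 0 to 3 genes of each list at an unadjusted p under 0.05. Over all 12988 tested genes 1666 to 3131 were under 0.05 unadjusted. Calls of these lists without the array labelled KD2 replicate 1 rest on a single KD2 array, so they are not counted here.

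Markers of several cell types moved in the same samples. With retinoic acid 8 of 9 tested endoderm markers rose in scrambled cells (median 1.08) and 9 of 9 in KD1 cells (median 3.92). Of 13 tested feeder fibroblast markers 7 rose and 2 fell in scrambled cells, and 5 rose and 5 fell in KD1 cells. Over all tested genes 22.4% were called higher and 16.7% lower in scrambled cells, and 29.4% and 21.4% in KD1 cells. In KD1 ESCs 4 endoderm markers were higher than in scrambled ESCs and 1 feeder marker was lower, where 2.32% of all genes were called. The endoderm list means were 6.52 to 6.53 against 5.28 to 5.45. In KD2 ESCs 0 of the 9 endoderm markers were called against scrambled, with list means of 5.34 to 5.64. There 3 feeder markers were lower. Between the knockdowns, 3 endoderm markers were lower in KD2 than in KD1. Over all tested genes 10.0% and 2.7% were called in these 2 KD2 comparisons. All 9 tested endoderm markers were higher in KD1 than in scrambled cells after retinoic acid (median 3.29), with list means of 9.98 to 10.4 on the KD1 arrays and 7.0 to 7.19 on the scrambled arrays. Of the feeder fibroblast markers 6 were lower and 0 higher, with list means over 15 genes of 6.26 to 6.7 against 7.3 to 7.56. Of 5 tested neural markers, Pax6 among them, 3 were lower and 0 higher, with list means over 6 genes of 5.29 to 5.68 against 6.42 to 6.55. Of 4 tested mesoderm markers 1 was lower and 1 higher, with list means over 6 genes of 5.31 to 5.52 against 5.23 to 5.27. With each pair of KD1 retinoic acid arrays alone 9 and 8 endoderm markers were higher and 5 and 5 feeder markers lower. Over all tested genes 11.2% were higher and 11.5% lower in KD1 after retinoic acid. With each pair alone 6.95% and 7.98% were higher, and 6.78% and 8.28% lower. The part of these cell types in the rise of the 7 genes with retinoic acid, or in the lower Meis1, Meis2, Pbx3 and Pknox2 values in KD1, was not tested.

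**Figure D4:**
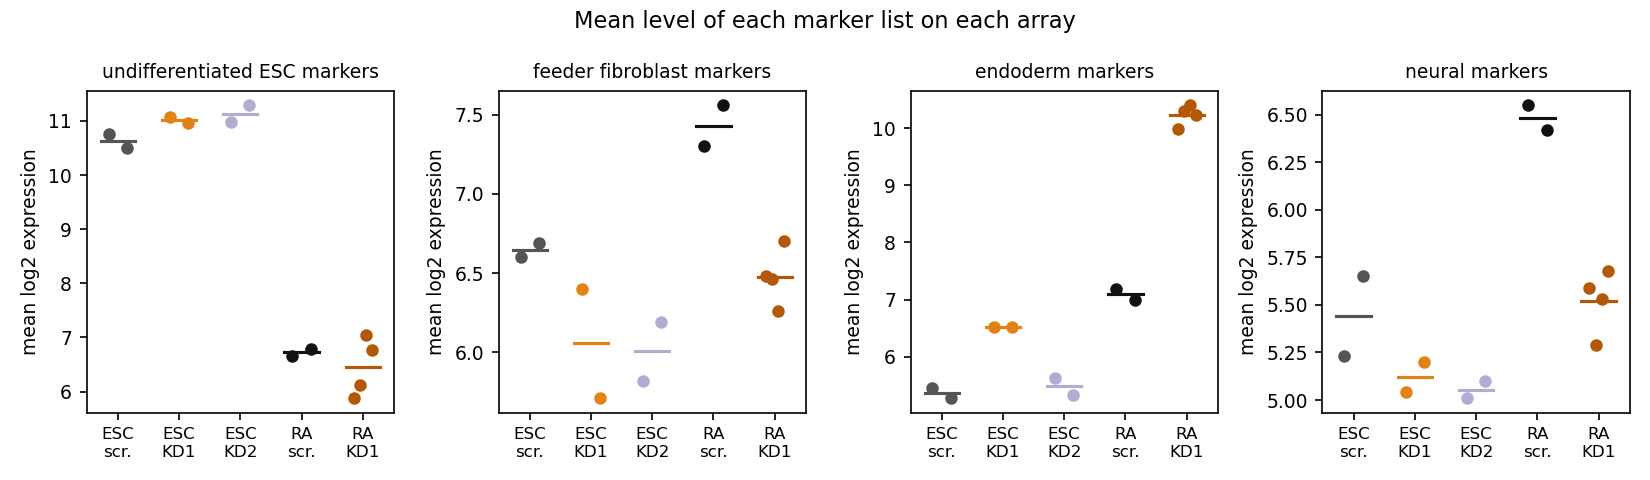
Mean log2 expression (vertical axes, a different range in each panel) of 4 lists of cell type markers on each array (points), with group means (lines), in the same 5 groups. KD1 cells after retinoic acid have the highest endoderm means, and lower feeder fibroblast and neural means than scrambled cells after retinoic acid.

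The genes most like each cofactor were found by the root mean square (RMS) difference of log2 values over the 12 arrays, each gene centred on its own mean, which is a description with no test. Nearest to Meis1 were Pmp22 and Hoxa5 (RMS difference 0.41 each) and Rarb (0.43). Nearest to Meis2 were Igf2 (0.37), Nr2f2 (0.40) and Hoxa5 (0.46). Nearest to Meis3 were Zfp790 (0.12), Camk1 (0.14) and Cep170 (0.15). Pbx2 was nearest to Smad3 (0.18), Septin8 and Ap1m1 (0.19 each), and Pbx3 to Hoxc6 and Cbx2 (0.17 each) and Mmp16 (0.20). Pknox1 was nearest to Ap1b1 (0.13), Ctdsp2 and Osbpl11 (0.14 each), and Pknox2 to Gnb5 (0.12), Pax3 (0.18) and Phactr2 (0.20). Among the cofactors themselves the closest pair was Pbx3 and Pknox2 (0.34), both of which were clearly highest in scrambled cells after retinoic acid, and Meis1 and Meis2 differed by 0.50. A gene with a small span can reach a small difference more easily: group means spanned 5.42 log2 units for Meis1 and 5.72 for Meis2, and 1.16 to 2.45 for the other 5 genes.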

How the data were processed

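RMA is named in the submitters' processing notes, and the values deposited by the authors are on a log2 scale, 1 per probe set and array; neither version nor settings of RMA were given. Array medians ran from 4.73 to 5.09, and no scaling was added. The number of arrays limits the precision. Of 35556 probe sets, 21789 had 1 gene symbol in the platform's gene table, 1621 had several and were left out, and 12146 were unnamed here. A gene with more than 1 probe set was represented by its brightest. Genes had to exceed percentile 40 of all named genes' values on 2 or more arrays.

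Group means were estimated by limma 3.58.1 (R 4.3.3) over the 12 arrays jointly, with 7 contrasts, 7 residual and 4.58 prior degrees of freedom. Calls are two-sided with a Benjamini-Hochberg adjusted p under 0.05 over all 12988 genes; errors after ± are standard errors. The members, lists and alternatives were chosen with earlier results of these data known. Named genes are the 7 members, Smarcd1 and the 3 genes most like each member. Up to 4 list genes with the largest called change per comparison are also named. Hoxc13 and Hoxd13 as higher in KD1, and the Hox genes named for the dim-gene filter, were added after their values were seen. So were the Nanog, Cyp26a1, Eomes, Mixl1, Hoxc4 and Pbx4 values given by array. Promoter windows come from RefSeq (GRCm38.p6).

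Alternatives covered the dim-gene filter, scaling, array weights, the arrays fitted, the handling of several probe sets, an intensity trend, a stricter threshold, a replicate block and leaving out each array. Python 3.11.15 (pandas 2.3.3, numpy 2.4.6) handled the tables and matplotlib 3.10.9 the figures.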

Additional observations from a re-analysis of the deposited data

Results flagged for a closer look

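The retinoic acid response of 3 genes differed between KD1 and scrambled cells by the interaction test. The difference was -2.09 log2 units for Meis2, -1.15 for Meis1 and -1.12 for Pknox2. No sample of the 4 KD1 retinoic acid arrays lay far enough from the other 3 to be singled out for any of the 7 genes.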

How the results depend on the processing

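The number of the 7 genes called with retinoic acid was 6 to 7 in scrambled cells and 5 to 7 in KD1 cells when each array was left out in turn. It was 3 to 6 for KD1 against scrambled after retinoic acid, 1 to 4 for the interaction, 0 for KD1 in ESCs, and 0 to 2 for each KD2 comparison. The interaction count was 1 at an adjusted p under 0.01, and 1 without scrambled ESC replicate 1 or scrambled retinoic acid replicate 1. The highest counts of these last 2 retinoic acid comparisons came from fits with fewer KD2 arrays. Without either KD2 array 5 of the 7 genes were lower and 1 higher in KD1 after retinoic acid. That fit called 18.8% of all genes lower and 18.6% higher. Its interaction was lower for 4, where 8.34% of all genes were lower. The main fit called 11.5% lower and 11.2% higher, and 3.61% lower in the interaction. Same-numbered arrays deviated together with correlations of -0.183 to 0.243, so the numbers were not taken to pair the arrays. With the replicate block the interaction count was 2 and Meis1 had an adjusted p of 0.0731.

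Directions turned for the following differences. The Smarcd1 change with retinoic acid in scrambled cells was -0.04 with cyclic loess and -0.02 with median centring, and -0.04 to 0.17 when arrays were left out. The Pknox1 interaction was -0.01 with cyclic loess, -0.03 with the replicate block, -0.03 with KD1 retinoic acid arrays 1 and 2 alone, and -0.12 to 0.12 when arrays were left out. Leaving out arrays gave -0.01 to 0.29 for Meis2 and -0.47 to 0.00 for Pbx2 in KD1 ESCs. For KD2 against scrambled it gave -0.05 to 0.25 for Meis1, -0.38 to 0.75 for Pbx2, -0.45 to 0.03 for Pbx3 and -0.46 to 0.73 for Pknox1. For KD2 against KD1 it gave -0.14 to 0.99 for Pbx2, -0.20 to 0.46 for Pbx3, -0.23 to 0.96 for Pknox1 and -0.61 to 0.80 for Smarcd1. The cause was not tested.

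Over all genes, KD2 against KD1 gave 66 higher and 285 lower, and 46 and 107 with cyclic loess. Without the array labelled KD2 replicate 1 it gave 2704 higher and 1852 lower, and KD2 against scrambled 2506 and 1956 in place of 374 and 928. KD2 comparisons without either KD2 array could not be run. Meis2 and Pknox2 were too dim to be tested in ESC comparisons fitted to those arrays alone, as was Pknox2 above percentile 60. The subsets of KD1 retinoic acid arrays were chosen after seeing the data.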
